A study of Mus musculus with 12 samples.

Results

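The genes described here encode the phase II conjugation enzymes of the mouse, taken by gene name as the cytosolic glutathione S-transferases (Gst alpha, kappa, mu, omega, pi, theta and zeta classes), the microsomal glutathione S-transferases (Mgst), the UDP-glycosyltransferases (Ugt) and the sulfotransferases (Sult), without pseudogenes. Of the 38127 genes counted, 68 met this rule, 22 of them cytosolic Gst, 3 Mgst, 22 Ugt and 21 Sult genes. They were followed in 12 bulk RNA-seq libraries of cells sorted from fetal liver (FL) of C57BL/6 embryos (C57BL/6J mice in the study's methods), with 3 libraries per population. All cells lacked Ter119 and CD45, which mark maturing erythroid cells and leukocytes. P2 cells at embryonic day 14.5 (E14.5) were CD54-CD31-Kit+CD24+. The study itself defined P2 as Kit+CD24+ cells without CD31 and CD324, and assigned them to erythroid progenitors. At the same age, CD54+CD31- cells, which contain the hepatoblasts, and CD54+CD31+ cells, called CD31+ cells here and containing the endothelium, were sorted in parallel. The last population was CD54+CD31- cells at E18.5. The labels name no transgene and no treatment.

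Phase II enzymes attach a polar group to drugs, hormones, bile acids, bilirubin and the reactive products of lipid peroxidation, so that the product can be exported. Gst and Mgst enzymes use glutathione, Ugt enzymes mostly use UDP-glucuronic acid, and Sult enzymes use the sulfate donor PAPS. The liver is the main site of this chemistry in the adult, and hepatocytes gain much of it around and after birth.

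Total counts were between 40714017 and 64368883 per library, so counting error was small except for genes near 0, and the number of libraries limited the precision. A figure legend of the study states independent litters for the E14.5 CD31+, P2 and CD324+ cells that were sequenced. It does not name CD54+CD31- cells, so that it covers their libraries is an assumption. The legend does not say whether the different populations were sorted from the same litters. Libraries of different E14.5 populations may therefore not be independent of each other. For the E18.5 libraries no statement on litters was found, and p-values then measure only the spread between these samples. Levels are given as CPM, the count scaled to a common library size that edgeR's TMM method had adjusted. The hepatoblast, erythroid and endothelial lists were each highest in the E14.5 population said to hold that cell type. The summed level of 15 hepatoblast genes was between 88200 and 101000 CPM in E14.5 CD54+CD31- cells, between 853 and 871 in P2 cells and between 1070 and 1210 in CD31+ cells. Lists of 12 genes each gave 3710 to 4040 CPM of erythroid genes in P2 cells, against at most 1230 in the other populations, although *Alas2* was at 0 throughout, and 11100 to 11800 CPM of endothelial genes in CD31+ cells, against at most 496. A list of 12 macrophage genes summed to 1370 to 1630 CPM in CD31+ cells, against 165 to 290 in E14.5 CD54+CD31- cells and 15.3 to 64.7 in P2 cells, although CD45+ cells had been excluded. *Mrc1*, a receptor that some endothelium also carries, had a mean of 1420 CPM of this sum, and each of the other genes of the list was lower in CD31+ than in E14.5 CD54+CD31- cells.

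The E18.5 CD54+CD31- libraries did not match the label of a liver population in the same way. The summed level of 14 genes of a lung epithelium list was between 12500 and 26200 CPM in them. It was 217 to 229 CPM in E14.5 CD54+CD31- cells, 377 to 434 in P2 cells and 182 to 202 in CD31+ cells. The 8 genes of a club cell list summed to 159 to 377 CPM at E18.5. They summed to 14.7 to 15.2 in E14.5 CD54+CD31- cells, 2.04 to 2.52 in P2 cells and 1.11 to 1.78 in CD31+ cells. The hepatoblast list ranged from 6280 to 67400 CPM, the lowest value being that of replicate 1. The results of members at E18.5 are therefore also given without replicate 1.

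Zero counts of members need care. In all, 12 of the 68 members were at 0 in every library, and 11 of these lie wholly inside the span of other genes of the GENCODE vM21 annotation. They are *Gsto1* and *Gsto2*, *Ugt1a1*, *Ugt1a2*, *Ugt1a5*, *Ugt1a6a*, *Ugt1a6b*, *Ugt1a8*, *Ugt1a9*, *Ugt2a2* and *Sult5a1*. The twelfth, *Sult2a5*, has no such overlap. Over the whole table, 1008 of 1027 protein-coding genes lying wholly within other genes (98.1%) were at 0 in every library, against 2187 of 13886 (15.7%) that overlap no gene. The share was 98.9% (359 of 363 genes) where the other gene lies on the opposite strand and no exon base is shared. The deposited counts therefore hold no measurement of the omega class or of most of the Ugt1 cluster, including *Ugt1a1*, the bilirubin-conjugating enzyme, and nothing is said of their expression. *Ugt1a7c*, *Ugt1a10*, *Gstt3* and *Gsta3* keep only part of their sequence free of other genes, and their levels are lower bounds of what was sequenced.

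Of the 68 members, 37 passed edgeR's low count filter in at least 1 fit, 35 in the 9 E14.5 libraries and 36 in the 6 CD54+CD31- libraries. The other 31 members were not tested, and 19 of these had some counts, at most 101 over the 12 libraries. Of the 35, 10 had at least 10 counts in every library of E14.5 CD54+CD31- cells and of no other population. Such genes could only differ between the populations, so counts of members called are descriptions and no test was made over the list. In all, 19 members had at least 10 counts in each of the 9 libraries.

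**Figure D1:**
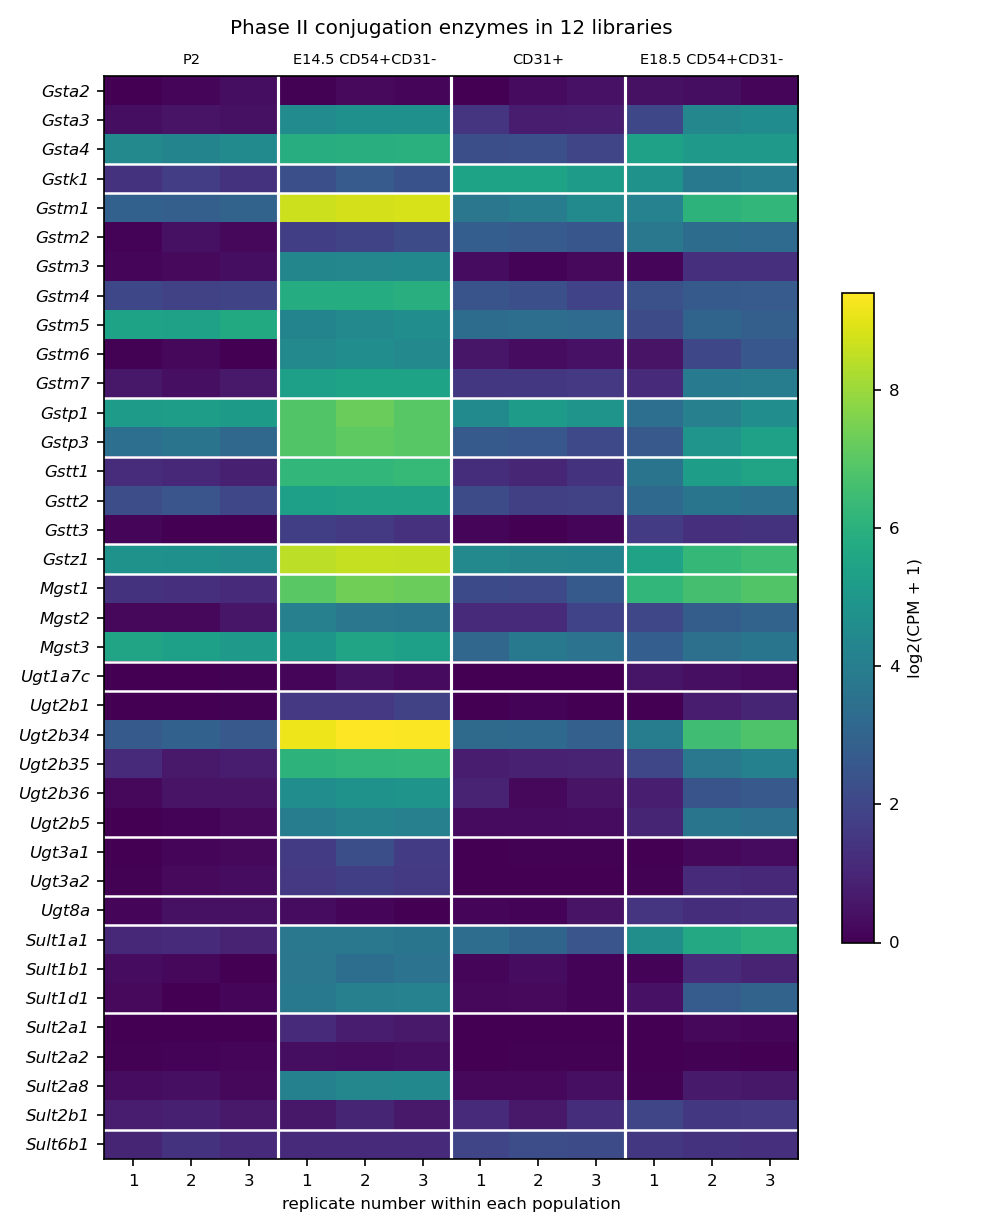
Level of the 37 tested members, as log2(CPM + 1), in each of the 12 libraries (columns, with replicate numbers below and populations above), ordered by family (white lines). The columns of E14.5 CD54+CD31- cells are the brightest for most members, whereas Gstm5 is brightest in P2 cells and Gstk1 in CD31+ cells, and replicate 1 at E18.5 is darker than replicates 2 and 3 for most Gst, Ugt and Sult rows.

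E14.5 CD54+CD31- cells had the highest levels of most members. Summed over all 68 genes, the level was 2270, 2570 and 2510 CPM in these libraries, against 211, 203 and 200 in P2 cells, 172, 185 and 172 in CD31+ cells, and 326, 644 and 753 at E18.5. The populations at E14.5 did not overlap in this sum between CD54+CD31- cells and either of the others. In 1 test of any difference among the 3 populations at E14.5, 32 of the 35 tested members passed an adjusted p of 0.05 (edgeR), beside 86.9% of all genes. The composition differed as well. Ugt genes made up 30.2% to 31.3% of the summed level in E14.5 CD54+CD31- cells, 3.25% to 4.08% in P2 cells and 4.86% to 5.98% in CD31+ cells, where cytosolic Gst genes held 73.1% to 77.6% and 78.0% to 78.8%.

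Among the Ugt genes of E14.5 CD54+CD31- cells, *Ugt2b34* had 575, 680 and 656 CPM. It belongs to the Ugt2b cluster on chromosome 5, whose enzymes glucuronidate steroids and bile acids, and lies at chr5:86889767-86906937 on the minus strand of GRCm38. *Ugt2b35* had 66.0, 72.1 and 73.5 CPM, *Ugt2b36* 23.7, 27.5 and 28.6, and *Ugt2b5* 14.3, 17.4 and 16.0. For *Ugt2b5*, 41.7% of the 50-base windows of its transcripts also occur in another gene, mainly *Ugt2b38*, so its counts depend on how such reads were assigned. The 3 libraries kept this order, although CPM values of different genes also reflect their lengths. *Ugt3a1*, with 2.15, 3.75 and 2.10 CPM, and *Ugt3a2*, with 1.98, 2.39 and 2.02, encode enzymes of the family that transfers other sugars.

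The Gst genes of this population were led by *Gstm1*, a mu class enzyme of the liver, with 413, 448 and 457 CPM. Per kilobase of exon, *Gstm1* had the highest mean level of all members at 298 CPM, followed by *Ugt2b34* at 148 and *Gstp3* at 137. Since genes whose whole span is covered by others were at 0 even without shared exons, levels were also taken per kilobase of span free of other genes. *Gstm1* again came first, at 76.8, followed by *Gstp3* at 59.2, *Gstp1* at 50.8 and *Ugt2b34* at 37.1. *Gstp1* had 114, 154 and 125 CPM and *Gstp3* 115, 134 and 125, and the libraries of these neighbouring pi class genes overlapped. *Gstp1* shares 33.7% of its windows with *Gstp2*. *Gstz1*, an isomerase of tyrosine breakdown, had 370 ± 13.6 CPM (SD, n = 3 libraries), and *Gsta4*, which conjugates the lipid peroxidation product 4-hydroxynonenal, had 56.7, 59.2 and 61.5.

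The Mgst genes encode membrane proteins with glutathione transferase or peroxidase activity. In E14.5 CD54+CD31- cells, *Mgst1* had 126, 164 and 151 CPM, *Mgst3* 30.4, 44.0 and 38.3, and *Mgst2*, which can form leukotriene C4, 16.0, 12.2 and 12. Among the Sult genes, *Sult2a8*, a bile acid sulfotransferase, had 16.7, 19.5 and 20.2 CPM, *Sult1d1*, which acts on catecholamines, 12.9, 16.3 and 17.2, *Sult1a1*, a phenol sulfotransferase, 12.7, 12.5 and 11.7, and *Sult1b1*, which acts on thyroid hormones, 12.2, 9.57 and 11.1. Of these 4, *Sult1b1* alone lay partly below 10 CPM, and the libraries of *Sult1d1* and *Sult1a1* did not overlap. Per kilobase of exon the order was another, with *Sult1a1* at 8.16 CPM, *Sult1d1* at 6.29, *Sult2a8* at 5.72 and *Sult1b1* at 3.94.

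P2 cells were compared with E14.5 CD54+CD31- cells to see which conjugation genes a progenitor population of the liver expressed. The question was asked of all genes by fitting edgeR's quasi-likelihood model to 15461 genes at once, with p-values adjusted over all of them by the Benjamini-Hochberg method and called below 0.05. *Gstm5* was the only member higher in P2 cells, 29 of the 35 tested members were lower, and 5 did not pass the test. Over all genes tested, 33.8% were higher and 36.1% lower. The median log2 fold change of the members was -5.69, or -4.88 with *Sult2a1*, which had no count in P2 cells, set at its bound, beside -0.01 over all genes. It was -3.80 over the 19 members with at least 10 counts in every library, and -4.40 without P2 replicate 1, when 38 members were tested. Of the 19 members with at least 10 counts in every library, 15 were lower.

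*Gstm5* had 42.9, 41.2 and 51.2 CPM in P2 cells, 18.2, 20.7 and 23.3 in E14.5 CD54+CD31- cells, 9.09, 9.50 and 8.73 in CD31+ cells, and 3.51, 7.29 and 6.20 at E18.5. Every P2 library was thus above every other library. Its log2 fold change against E14.5 CD54+CD31- cells was 1.10 (standard error 0.118, adjusted p = 1.19e-05, edgeR). *Gstm5* is a mu class gene at chr3:107895821-107898686 on the plus strand, and 86.1% of its exon bases are free of other genes. The remaining 6 genes of the mu cluster, which follow it on chromosome 3 on the minus strand as far as *Gstm4* at chr3:108040408-108044894, were all lower in P2 cells. *Gstm1* had 6.66, 6.20 and 6.93 CPM there and changed by -6.08 on the log2 scale (standard error 0.212, adjusted p = 2.68e-09, edgeR), and *Gstm6* had 0.0459, 0.146 and 0.0193 CPM against 20.6, 23.7 and 20.3, the largest fall of a member with counts in all libraries, at -8.23 (adjusted p = 3.11e-08, edgeR). Genes next to each other in 1 cluster thus differed in direction between these populations.

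Besides *Gstm5*, 8 members had mean levels in P2 cells between 27.0% and 201% of those in E14.5 CD54+CD31- cells. *Mgst3* had 44.6, 38.5 and 32.8 CPM in P2 cells, and these libraries overlapped with those of E14.5 CD54+CD31- cells (log2 fold change 0.02, standard error 0.197, adjusted p = 0.927, edgeR). *Gsta4* had 20.8, 17.8 and 21.9 CPM (-1.57) and *Gstp1* 35.9, 36.3 and 34.0 (-1.91), and both were called lower. *Gstk1*, the mitochondrial and peroxisomal Gst, had 1.61, 2.31 and 1.60 CPM in P2 cells against 3.88, 5.48 and 4.22 (-1.31, adjusted p = 0.000112, edgeR). Per kilobase of exon, *Gstm5* at 35.3 CPM and *Mgst3* at 35.2 were the highest members of P2 cells, followed by *Gstp1* at 22.9. Per kilobase of free span the order was *Gstm5* (18.2), *Gstp1* (13.7), *Gstp3* (4.62) and *Mgst3* (1.76). The other 4 of these members were low in both populations and did not pass the test. *Sult2b1*, a cholesterol sulfotransferase, had 0.643, 0.770 and 0.578 CPM in P2 cells against 0.509, 0.944 and 0.568, *Sult6b1* had 0.942, 1.62 and 1.25 against 1.22, 1.16 and 1.23, *Ugt8a*, which makes the galactolipid of myelin, had 0.115, 0.354 and 0.347 against 0.255, 0.126 and 0.0247, and *Gsta2* was at most 0.289 CPM. All these libraries overlapped.

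The remaining 26 tested members fell in P2 cells by at least 3.46 on the log2 scale. Among the 26 are the 10 members with at least 10 counts in every library of E14.5 CD54+CD31- cells and of no other population. These could only differ. All 5 tested Ugt2 genes fell in this way, with log2 fold changes from -6.39 (*Ugt2b36*) to -7.34 (*Ugt2b5*), but *Ugt2b1* and *Ugt2b36* belong to the 10. *Ugt2b34* had 5.31, 6.62 and 5.12 CPM in P2 cells (-6.83, standard error 0.171, adjusted p = 3.03e-10, edgeR), and *Mgst1* had 1.63, 1.42 and 1.25 (-6.70, adjusted p = 3.24e-09, edgeR). *Sult1d1*, with 0.184, 0 and 0.135 CPM, and *Ugt2b1*, with a count in only 1 P2 library, had log2 fold changes of -7.19 and -7.06. Both belong to the 10, as does *Sult2a1*. *Sult2a1*, a steroid sulfotransferase, had no count in P2 cells and 1.16, 0.661 and 0.568 CPM in E14.5 CD54+CD31- cells, a level at least 11.6-fold higher when P2 cells are set at 3 counts in a library. It shares 33.2% of its windows with other Sult2a genes.

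The levels that remained in P2 cells were set beside those of the hepatoblast markers. The 15 markers had P2 levels between 0.790% and 1.37% of those in E14.5 CD54+CD31- cells (median 0.910%). Of the 35 tested members, 13 were at or below 1.37%, among them *Ugt2b34* at 0.892%, *Mgst1* at 0.973%, *Gstm3* at 0.985%, *Ugt2b35* at 1.12%, *Sult2a8* at 1.2% and *Sult1b1* at 1.21%. Of those named, *Gstm3*, *Sult2a8* and *Sult1b1* had at least 10 counts in every library of E14.5 CD54+CD31- cells and of no other population. The filter thus favored their low percentages. The share of all genes at or below 1.37% was not computed. The 22 members above that range included *Gstm1* at 1.5%, *Gstm4* at 4.91%, *Gstz1* at 6.89%, *Gstp3* at 7.80%, *Sult1a1* at 8.70% and *Gstt2* at 9.19%. The part of hepatoblast RNA in the P2 levels was not tested. In such bulk samples, fewer cells of a type and less RNA per cell cannot be told apart.

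**Figure D2:**
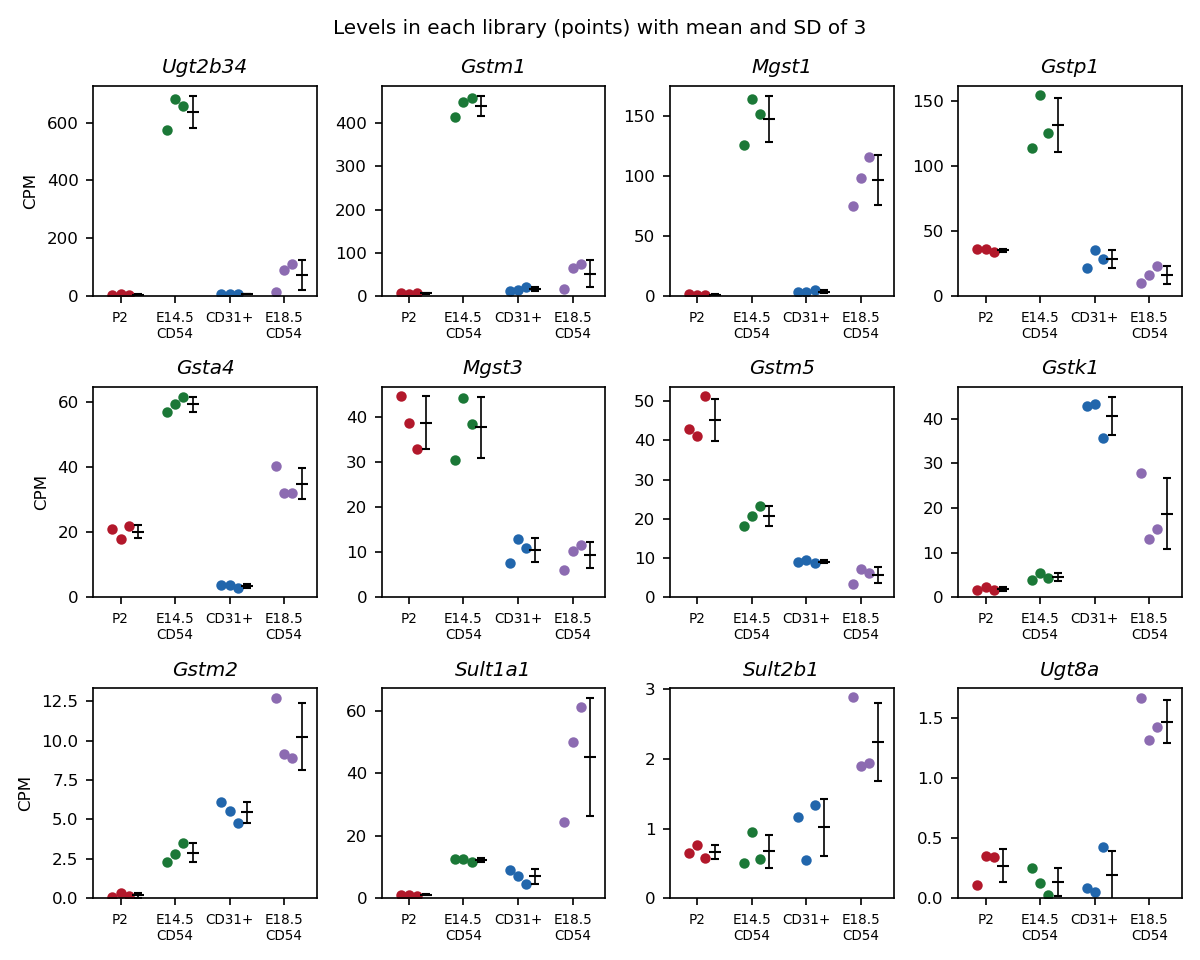
CPM in each of the 3 libraries of a population (points, replicates 1 to 3 from left to right) with the mean and SD beside them, for 12 members and on a separate axis from 0 for each gene. Gstm5 is highest in P2 cells, Gstk1 in CD31+ cells, and Gstm2, Sult1a1, Sult2b1 and Ugt8a in E18.5 CD54+CD31- cells, whereas Ugt2b34, Gstm1, Mgst1, Gstp1 and Gsta4 are highest in E14.5 CD54+CD31- cells and the Mgst3 points of P2 and E14.5 CD54+CD31- cells overlap.

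The promoters of members that differed in this way were compared in sequence. RefSeq promoter windows of GRCm38.p6, from 250 bases before to 50 after the start, were found for 60 of the 68 members, and 31 of these were tested at E14.5. The number of CpG dinucleotides in the 250 bases before the start had a median of 6 over all 32851 windows. The 4 promoters below are shown because they cover the contrast: *Gstm5*, highest in P2 cells, *Gstk1*, highest in CD31+ cells, and *Gstm1* and *Ugt2b34*, the leading genes of E14.5 CD54+CD31- cells. Each is written 5′ to 3′ on the strand of its gene, up to the base before the start, with CpG dinucleotides in capitals. *Gstm5* (chr3:107895604-107895853, plus strand) holds 13 of them and ends 33 bases inside the annotated gene, *Gstk1* (chr6:42245685-42245934, plus strand) 10, *Gstm1* (chr3:108017974-108018223, minus strand) 13 and *Ugt2b34* (chr5:86906938-86907187, minus strand) 0.
Gstm5: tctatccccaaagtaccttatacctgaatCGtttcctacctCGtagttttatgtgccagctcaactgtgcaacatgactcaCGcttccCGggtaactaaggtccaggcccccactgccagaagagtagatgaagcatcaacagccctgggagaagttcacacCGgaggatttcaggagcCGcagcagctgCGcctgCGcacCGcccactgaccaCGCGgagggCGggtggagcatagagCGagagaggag
Gstk1: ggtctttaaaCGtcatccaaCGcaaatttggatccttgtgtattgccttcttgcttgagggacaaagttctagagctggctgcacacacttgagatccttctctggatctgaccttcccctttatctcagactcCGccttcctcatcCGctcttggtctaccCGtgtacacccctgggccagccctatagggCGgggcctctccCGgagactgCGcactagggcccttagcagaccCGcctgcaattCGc
Gstm1: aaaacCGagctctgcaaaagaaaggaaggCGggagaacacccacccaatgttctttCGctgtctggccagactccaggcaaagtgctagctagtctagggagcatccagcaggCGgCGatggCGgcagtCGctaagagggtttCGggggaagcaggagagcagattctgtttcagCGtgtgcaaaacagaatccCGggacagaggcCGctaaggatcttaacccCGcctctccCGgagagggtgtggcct
Ugt2b34: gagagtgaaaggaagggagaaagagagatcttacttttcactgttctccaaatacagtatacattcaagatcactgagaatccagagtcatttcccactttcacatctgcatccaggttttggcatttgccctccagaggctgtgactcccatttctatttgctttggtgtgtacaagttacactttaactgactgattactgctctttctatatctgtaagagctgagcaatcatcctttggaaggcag

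The 10 tested members with more than 6 CpG dinucleotides had log2 fold changes in P2 against E14.5 CD54+CD31- cells from -6.70 (*Mgst1*) to 1.10 (*Gstm5*). The 21 members with 6 or fewer had log2 fold changes from -8.23 (*Gstm6*) to 0.24 (*Gsta2*). Of these 21, 8 reached 10 counts in every library of E14.5 CD54+CD31- cells and of no other population, against 0 of the 10, so that the filter set part of the difference and no median of the groups is compared. The start used for *Gsta2* lies 8643 bases from the annotated gene start, and that gene had only 20 counts in P2 and 12 in E14.5 CD54+CD31- cells. For *Sult2b1*, *Ugt3a1*, *Gstt1* and *Mgst2* the start lies 25057, 2941, 853 and 819 bases away, so these windows may not be the promoters in use. The groups overlapped widely, and *Gstm1* has as many CpG dinucleotides as *Gstm5*. No promoter of a tested Ugt2b gene had more than 2, while *Mgst3* had 17, *Gstp1* 18 and *Ugt8a* 32. Motifs were sought in the 300-base windows on both strands. The antioxidant response element core TGACNNNGC was found in *Gsta3*, *Gstm5* and *Mgst1* and in 12.4% of all windows, and the xenobiotic response element core GCGTG in 12 members, *Gstm1*, *Gstm5*, *Gstp1*, *Gstp3* and *Mgst3* among them, and in 32.4% of all windows. The HNF1 motif (0.0609% of all windows) and the HNF4 motif CAAAGTCCA (0.475%) were found in no member. These matches describe letters only.

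**Figure D3:**
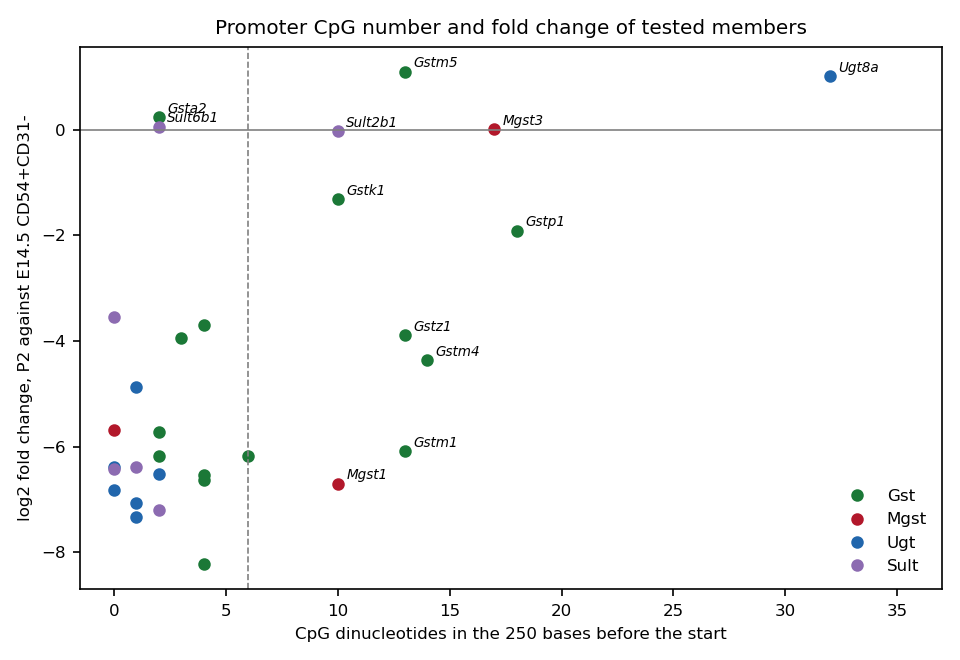
Number of CpG dinucleotides in the 250 bases before the start (horizontal axis, dashed line at the median of all promoters) and log2 fold change of P2 against E14.5 CD54+CD31- cells (vertical axis) for the 31 tested members with a promoter window, colored by enzyme group. Members near 0 or above include Gstm5, Mgst3 and Ugt8a with many CpG dinucleotides, but also Gsta2 and Sult6b1 with few, and Gstm1 and Mgst1 lie low despite many. The start used for Gsta2 lies 8643 bases from its annotated gene start.

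CD31+ cells were compared with E14.5 CD54+CD31- cells in the same fit. In CD31+ cells 3 members were higher, 29 of 35 were lower and 3 did not pass the test, beside 31.7% of all genes higher and 34.0% lower. The median log2 fold change was -4.61 over the members and -0.03 over all genes. It was -4.04 over the 19 members with at least 10 counts in every library. Both comparisons share the E14.5 CD54+CD31- libraries, so that their lower members are not independent of each other.

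*Gstk1* had 43.0, 43.3 and 35.7 CPM in CD31+ cells, all above the 3.88, 5.48 and 4.22 CPM of E14.5 CD54+CD31- cells, and differed by 3.16 on the log2 scale (standard error 0.183, adjusted p = 1.36e-07, edgeR). It was the highest member of CD31+ cells per kilobase of exon, at 27.7 CPM, followed by *Gstp1* at 18.4, and second after *Gstp1* per kilobase of free span (9.02 and 11.1). Its share of the summed level of all members was 20.8% to 25.0% in CD31+ cells and at most 0.213% in E14.5 CD54+CD31- cells. *Sult6b1* had 2.89, 3.72 and 3.45 CPM, above every E14.5 CD54+CD31- library, and differed by 1.47 on the log2 scale (standard error 0.259, adjusted p = 0.000569, edgeR). *Gstm2*, a mu class gene, had 6.09, 5.54 and 4.75 CPM against 2.32, 2.83 and 3.5. These libraries did not overlap, but the call (0.91, standard error 0.323, adjusted p = 0.0293, edgeR) was lost without any 1 of the 3 CD31+ libraries or without replicate 1 or 2 of E14.5 CD54+CD31- cells, with adjusted p between 0.0549 and 0.102.

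Members that fell in CD31+ cells again included all tested Ugt2 genes. Of these, *Ugt2b1* and *Ugt2b36* had at least 10 counts in every library of E14.5 CD54+CD31- cells and of no other population. The same holds for *Gstm3*, *Sult1d1*, *Ugt3a1* and *Ugt3a2* below, and such members could only differ. *Ugt2b34* had 8.44, 8.30 and 6.34 CPM (-6.38, standard error 0.167, adjusted p = 5.35e-10, edgeR). *Gstm3* had 0.233, 0.0713 and 0.174 CPM against 19.0, 19.3 and 19.8 (-6.90), and *Sult1d1* 0.144, 0.178 and 0.0634 (-6.91). *Ugt3a2* had no count in CD31+ cells and was at least 39.6-fold higher in E14.5 CD54+CD31- cells when CD31+ cells are set at 3 counts in a library, and *Ugt3a1* had 0, 0.0356 and 0.0317 CPM. Smaller falls were those of *Sult1a1*, with 9.21, 7.25 and 4.56 CPM (-0.82, adjusted p = 0.010, edgeR), *Gstm5* (-1.2), *Mgst3*, with 7.63, 12.9 and 11.0 CPM (-1.84), and *Gstp1*, with 21.5, 35.6 and 28.4 CPM (-2.21). The 15 hepatoblast markers had CD31+ levels between 1.07% and 1.5% of those in E14.5 CD54+CD31- cells. At or below 1.5% were 11 members, including *Ugt2b34* at 1.21%, *Ugt2b35* at 1.14% and *Ugt2b5* at 1.4%, and 24 members were above, including *Mgst1* at 2.67%, *Gstm1* at 3.64%, *Gstz1* at 5.16% and *Mgst2* at 12.6%. Among the 11 are also members such as *Gstm3* and *Sult1d1*, whose low percentages the filter favored. The share of all genes in this range was not computed. The part of hepatoblast RNA in these levels was not tested.

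**Figure D4:**
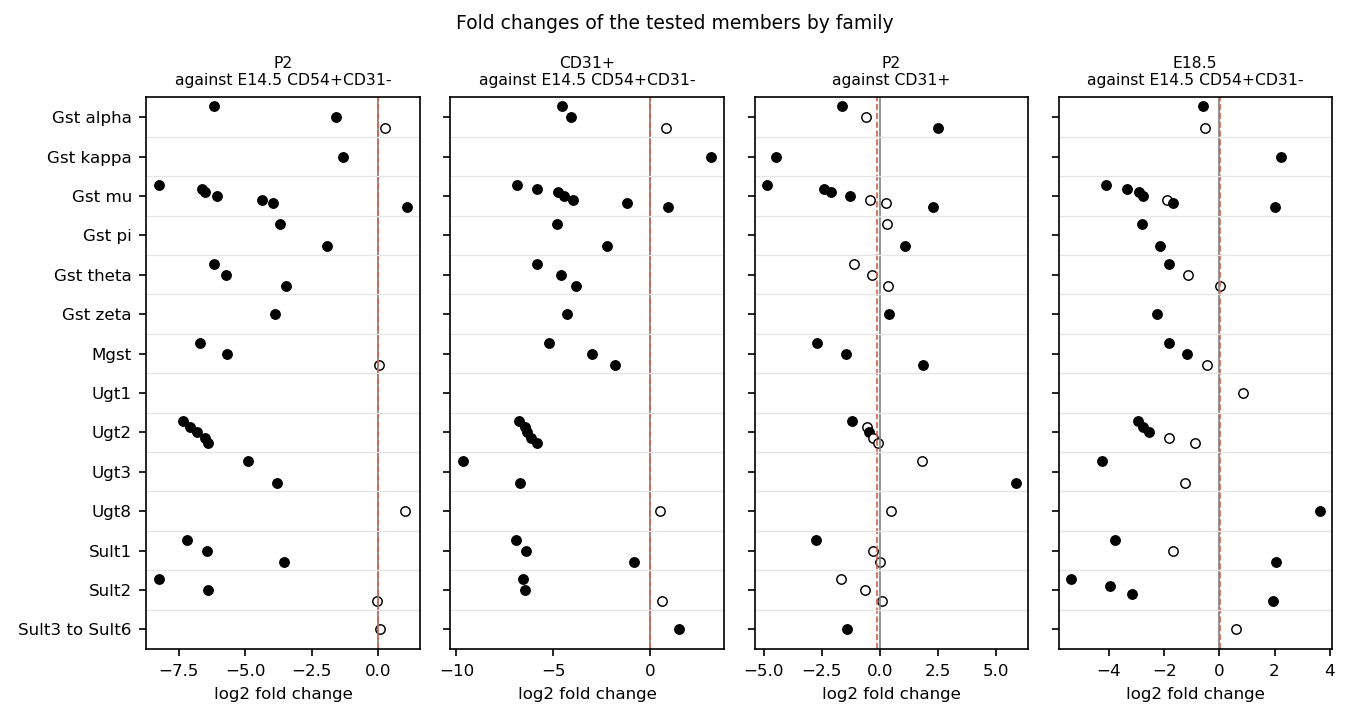
Log2 fold change (horizontal axis) of each tested member by family (rows) in the 4 comparisons (panels), with filled circles for members past an adjusted p of 0.05 and open circles for the others. The dashed line is the median of all genes tested. The Ugt2 genes lie together far to the left in both comparisons with E14.5 CD54+CD31- cells and closer to 0 between P2 and CD31+ cells, where single Gst mu, Gst kappa and Ugt3 genes lie far from 0.

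P2 and CD31+ cells, both of which carried few of these transcripts, were also compared with each other. In P2 cells 6 members were higher, 12 were lower and 17 did not pass the test, beside 34.3% of all genes higher and 39.4% lower, and the median log2 fold change was -0.40 over the members and -0.13 over all genes. With the authors' library factors in place of TMM, 5 members were higher and 14 lower, and the share of all called genes that were higher in P2 cells was 33.9% in place of 46.6%. Against E14.5 CD54+CD31- cells this share was 38.2% in place of 48.3%, with the same numbers of members called.

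*Gstm5* was higher in P2 cells by 2.30 on the log2 scale (standard error 0.122, adjusted p = 1.10e-07, edgeR). *Gsta4*, with 3.79, 3.87 and 2.87 CPM in CD31+ cells, was higher in P2 cells by 2.51 (standard error 0.134, adjusted p = 1.10e-07, edgeR), and *Mgst3* by 1.86 (adjusted p = 1.37e-05, edgeR). *Gstp3* had 9.76, 11.2 and 8.11 CPM in P2 cells and 5.39, 4.81 and 3.19 in CD31+ cells (1.11, adjusted p = 0.000297, edgeR). For these 4 genes every P2 library was above every CD31+ library. *Gstz1* differed by 0.41 (adjusted p = 0.00189, edgeR), and by 0.04 with the authors' factors (adjusted p = 0.746, edgeR). *Ugt3a2* had 0.0459, 0.167 and 0.231 CPM in P2 cells and no count in CD31+ cells, a level at least 2.74-fold higher.

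Lower in P2 cells were *Gstm2*, with 0.0689, 0.333 and 0.154 CPM (-4.86, standard error 0.411, adjusted p = 2.03e-06, edgeR), and *Gstk1* (-4.48, standard error 0.196, adjusted p = 4.63e-08, edgeR). *Sult1a1* followed with 1.13, 1.19 and 0.886 CPM in P2 cells (-2.73, adjusted p = 4.80e-06, edgeR), *Mgst2* with 0.138, 0.146 and 0.481 against 1.15, 1.21 and 2.71 (-2.70), and *Gstm6* with 0.503, 0.249 and 0.364 CPM in CD31+ cells (-2.38). The libraries of both populations did not overlap for these genes. *Ugt2b34* (-0.45, adjusted p = 0.0143, edgeR) had overlapping libraries, and its call was lost without CD31+ replicate 1 or 2 or P2 replicate 1 or 3 (adjusted p between 0.0517 and 0.108). *Ugt2b5* (-1.19, adjusted p = 0.0447, edgeR) lost its call without any CD31+ library or without P2 replicate 1 or 2, with adjusted p between 0.0718 and 0.158, and with a replicate block (adjusted p = 0.0533, edgeR). *Ugt2b1*, *Ugt2b35*, *Ugt2b36*, *Sult1b1*, *Sult1d1* and *Sult2a8* did not pass the test, with log2 fold changes between -0.56 and 0.08. A further 5 members that missed the threshold passed it in other settings. *Gstp1* (0.30, adjusted p = 0.131, edgeR) passed without CD31+ replicate 2 (0.56, adjusted p = 0.00922, edgeR) and with a replicate block (0.33, adjusted p = 0.0432, edgeR). *Ugt3a1* (1.84, adjusted p = 0.129, edgeR) passed without P2 replicate 1 (2.44) and *Gstt2* (0.37, adjusted p = 0.0906, edgeR) without CD31+ replicate 1 (0.56) or P2 replicate 3 (0.50). *Gstm4* (-0.40, adjusted p = 0.0504, edgeR) passed without CD31+ replicate 3 (-0.51) and, with all libraries, with the authors' factors (-0.77, adjusted p = 0.00167), with at least 10 counts in every library (adjusted p = 0.0128), with DESeq2's size factors (adjusted p = 0.0417) and with DESeq2 (adjusted p = 0.0424). *Gstt1* (-0.33, adjusted p = 0.164, edgeR) passed with the authors' factors (-0.71, adjusted p = 0.0141).

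CD54+CD31- cells at E18.5 were compared with those at E14.5 in a fit of these 6 libraries over 15863 genes. At E18.5 5 members were higher, 20 of 36 were lower and 11 did not pass the test, beside 35.9% of all genes higher and 33.5% lower. The median log2 fold change was -1.82 over the members, or -1.25 without E18.5 replicate 1, and 0.03 over all genes. Of the 36 members, 7 had at least 10 counts in every library at E14.5 only, among them *Sult2a8*, *Ugt3a1*, *Gstm3* and *Sult1b1*. Another 2, *Ugt8a* and *Ugt1a7c*, had them at E18.5 only. The filter favored the direction of these members. Over the 26 members with at least 10 counts in every library the median was -1.53. Without E18.5 replicate 1, 39 members were tested, and 7 were higher and 25 lower. DESeq2, given all 68 members without edgeR's filter, called 8 higher and 24 lower. Of all genes called in these 2 settings, 50.6% and 54.3% were higher, against 51.7% in the fit above. Between the same groups the lung epithelium, club cell and hepatoblast lists moved as given above. The 15 hepatoblast markers had E18.5 levels between 13.8% and 131% of those at E14.5 (median 38.7%), and the 36 members had a median of 24.9%. The summed level of 8 cholangiocyte genes was 1210 to 1860 CPM at E18.5 against 42.3 to 55.6 at E14.5, that of 8 mesothelial genes 1300 to 1950 against 196 to 206, and that of 12 stellate genes 4230 to 4470 against 1170 to 1230. The macrophage list was at 392 to 598 against 165 to 290 CPM, and the erythroid list at 161 to 442 against 792 to 1230. The part of these cells in the following results was not tested.

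The 5 members called higher were 2 cytosolic Gst, 2 Sult and 1 Ugt gene. *Ugt8a* had 1.67, 1.32 and 1.43 CPM at E18.5 against 0.255, 0.126 and 0.0247 at E14.5 (log2 fold change 3.63, standard error 0.622, adjusted p = 0.00193, edgeR). *Gstk1* had 27.8, 13.1 and 15.4 CPM (2.25, standard error 0.330, adjusted p = 0.000947, edgeR), and *Gstm2* 12.7, 9.14 and 8.88 (2.02, standard error 0.228, adjusted p = 0.000291, edgeR). For both genes replicate 1 was the highest E18.5 library, and each E18.5 library was above every E14.5 library. *Sult1a1* had 24.4, 50.2 and 61.3 CPM against 12.7, 12.5 and 11.7 (2.06, standard error 0.316, adjusted p = 0.00116, edgeR), with replicate 1 the lowest. *Sult2b1* had 2.89, 1.90 and 1.94 CPM (1.93, standard error 0.349, adjusted p = 0.00247, edgeR), and 62.6% of its exon bases are free of other genes. Without replicate 1 all 5 remained called, with log2 fold changes of 3.52 for *Ugt8a*, 2.35 for *Sult1a1*, 1.83 for *Gstk1*, 1.81 for *Gstm2* and 1.69 for *Sult2b1*.

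Among the Sult genes that fell, *Sult2a8* had 0.0310, 0.621 and 0.526 CPM at E18.5 (log2 fold change -5.37, standard error 0.692, adjusted p = 0.000524, edgeR), and *Sult1b1* had 0.0619, 1.15 and 0.900 (-3.76, adjusted p = 0.00390, edgeR). *Sult2a2*, of whose windows 62.1% occur in other genes, had 0.283, 0.252 and 0.296 CPM at E14.5 and a count in only 1 library at E18.5 (-3.94, adjusted p = 0.00628, edgeR). *Ugt3a1* had 0, 0.155 and 0.208 CPM (-4.23), and *Ugt2b34* 14.7, 90.9 and 112 (-2.96, standard error 0.674, adjusted p = 0.00691, edgeR). All E18.5 libraries of these genes lay below those of E14.5, and replicate 1 was the lowest of them except for *Sult2a2*, which was at 0 in replicates 1 and 3. Without replicate 1 these genes remained called, at -4.86 for *Sult2a8*, -3.25 for *Sult1b1*, -3.49 for *Sult2a2*, -3.69 for *Ugt3a1* and -2.48 for *Ugt2b34*.

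Of the 7 Gst mu genes, 5 fell, *Gstm2* rose, and *Gstm7* missed the threshold (-1.90, adjusted p = 0.0573, edgeR). *Gstm7* passed it without replicate 1 (-1.39, adjusted p = 2.55e-06, edgeR). It also passed with DESeq2 (-1.87, adjusted p = 0.0116, DESeq2) and with all 12 libraries in 1 fit (-2.08, adjusted p = 0.00946, edgeR). *Gstm3* had 0.124, 1.41 and 1.45 CPM (-4.09, adjusted p = 0.00198, edgeR) and *Gstm1* 16.9, 66.0 and 74.9 (-2.89, adjusted p = 0.00235, edgeR). *Gstm5* fell by 1.69 on the log2 scale, *Mgst3*, with 6.08, 10.2 and 11.6 CPM, by 1.83, *Gstp1*, with 9.83, 16.2 and 23.3 CPM, by 2.81. Without replicate 1 the log2 fold changes were -3.59 for *Gstm3*, -2.47 for *Gstm1*, -1.45 for *Gstm5*, -1.61 for *Mgst3* and -2.56 for *Gstp1*. *Gstp3* had 5.26, 29.4 and 41.0 CPM (-2.13, adjusted p = 0.0225, edgeR), and its call was lost without E18.5 replicate 2 or without any E14.5 library (adjusted p between 0.0546 and 0.0580) but not without replicate 1 (-1.65). The smallest falls were those of *Gsta4*, with 40.3, 32 and 32.1 CPM (-0.58, adjusted p = 0.00510, edgeR), which missed the threshold with the authors' factors (-0.34, adjusted p = 0.0606, edgeR), and of *Mgst2*, with 3.05, 5.90 and 6.88 CPM (-1.17, adjusted p = 0.0127, edgeR), which missed it without E14.5 replicate 1 (adjusted p = 0.0506, edgeR). Without replicate 1 their log2 fold changes were -0.72 and -0.91.

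*Mgst1* had 74.9, 98.5 and 116 CPM and lay below every E14.5 library, without passing the test (-0.43, adjusted p = 0.0595, edgeR). It passed without E18.5 replicate 3 (-0.58, adjusted p = 0.0249, edgeR) and with a replicate block (-0.44, adjusted p = 0.0326, edgeR), and not without replicate 1 (-0.29, adjusted p = 0.0532, edgeR). With all 12 libraries in 1 fit it passed as well (-0.61, adjusted p = 0.0208, edgeR). It was the highest member of the E18.5 libraries per kilobase of exon, at 47.9 CPM, followed by *Gstm1* at 35.7 and *Sult1a1* at 30.1, whereas *Sult1a1* (12.9) and *Gstp3* (12) came first per kilobase of free span. From replicates 2 and 3 alone, *Mgst1* (53.2) and *Gstm1* (47.8) again led per kilobase of exon, but *Gstp3* was above *Sult1a1* both there (38.7 and 37) and per kilobase of free span (16.8 and 15.9). *Ugt2b5*, with 0.944, 11.5 and 10.7 CPM, *Sult1d1*, with 0.387, 5.66 and 6.91, and *Ugt2b1*, with 0, 0.660 and 0.956, passed the test only without E18.5 replicate 1 in the leave-one-out fits, with log2 fold changes of -0.35, -1.13 and -1.25. *Sult1d1* also passed with all 12 libraries in 1 fit (-1.84, adjusted p = 0.0448, edgeR). *Sult6b1* (0.62, adjusted p = 0.0555, edgeR) was called higher with DESeq2 (0.66, adjusted p = 0.0326, DESeq2). In edgeR it was called higher with DESeq2's size factors (adjusted p = 0.0489), the authors' factors (0.0205), at least 10 counts in every library (0.0161) and genes above 1% left out (0.0398). *Gstt1*, with 11.4, 36.9 and 44.0 CPM (-1.12, adjusted p = 0.0562, edgeR), passed the test without replicate 1 (-0.73, adjusted p = 0.00014, edgeR) or replicate 3 (-1.47, adjusted p = 0.0333, edgeR). It also passed with DESeq2 (-1.08, adjusted p = 0.0257, DESeq2) and with all 12 libraries in 1 fit (-1.3, adjusted p = 0.00932, edgeR).

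Replicate 1 of the E18.5 libraries was set beside replicates 2 and 3 in these genes. Of 37 members with at least 30 counts over the 3 libraries, 26 were lowest in replicate 1, 10 highest and 1 between. The share of all genes lowest in replicate 1 was not computed, so these counts describe the members only. The median ratio of replicate 1 to the mean of replicates 2 and 3 was 0.477. By gene, it ranged from 0.0395 for *Ugt3a2* and 0.0540 for *Sult2a8*, apart from *Ugt2b1*, which was at 0, to 1.95 for *Gstk1*. The members highest in replicate 1 were *Gstk1*, *Gsta2*, *Ugt1a7c*, *Sult2b1*, *Gstt3*, *Gstm2*, *Gstt4*, *Gsta4*, *Sult6b1* and *Ugt8a*. The median ratio over the genes of a list was 0.0810 for the hepatoblast, 0.231 for the erythroid and 0.350 for the macrophage list. It was 1.07 for the stellate, 1.09 for the endothelial, 1.30 for the mesothelial, 1.49 for the cholangiocyte, 1.86 for the lung epithelium and 2.13 for the club cell list. Among the members highest in replicate 1 were 4 of the 5 called higher at E18.5, *Sult1a1* being the exception.

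**Figure D5:**
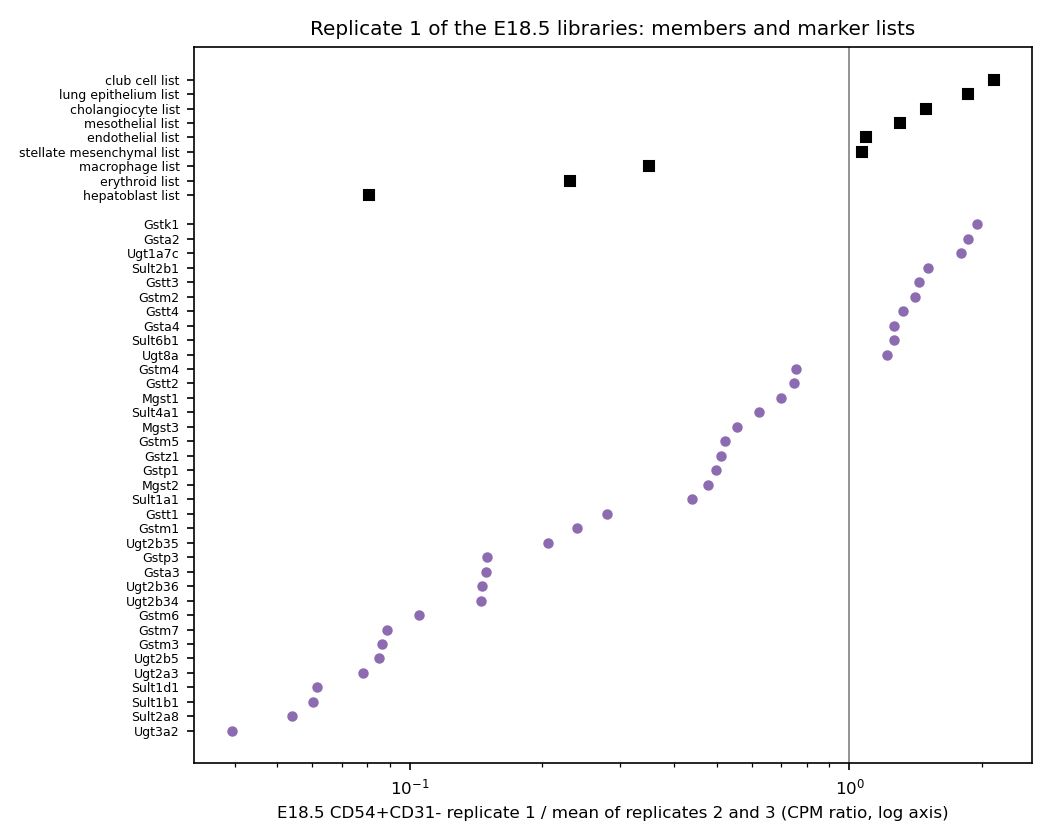
Ratio of the CPM in E18.5 replicate 1 to the mean of replicates 2 and 3 (log axis) for 36 members (circles, Ugt2b1 with a ratio of 0 left out) and as the median over the genes of each marker list (squares). Most members lie left of 1 with the hepatoblast, erythroid and macrophage lists, and 10 members lie right of 1. The stellate, endothelial, mesothelial, cholangiocyte, lung epithelium and club cell lists also lie right of 1.

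Genes linked to the supply and export of the conjugates were taken from lists outside the 4 enzyme groups, and are given with all libraries, E18.5 replicate 1 included. Their counts stand beside the shares of all genes given above, 33.8% higher and 36.1% lower in P2 and 31.7% and 34.0% in CD31+ against E14.5 CD54+CD31- cells, 34.3% and 39.4% in P2 against CD31+ cells, and 35.9% and 33.5% at E18.5. Of 17 genes of glutathione supply, use and breakdown, 14 were tested at E14.5, and 2 were higher and 7 lower in P2 than in E14.5 CD54+CD31- cells. *Ggct*, of glutathione breakdown, and *Gclc*, the catalytic subunit of its first synthetic step, rose by 2.25 and 0.99, and *Anpep* fell by 6.85. Against CD31+ cells, 6 were higher and 4 lower in P2 cells, with *Gclm*, the partner of *Gclc*, at a log2 fold change of 1.82. In CD31+ against E14.5 CD54+CD31- cells 1 was higher and 7 lower, and at E18.5 3 of 15 were higher, *Ggt5* leading at 4.82, and 4 lower. The list around UDP-glucuronic acid also held *Ugcg*, *Gusb* and *Akr1a1*, which do not supply it, so its counts do not describe supply alone. All its 9 genes were tested, and 2 were higher and 7 lower in both P2 and CD31+ cells against E14.5 CD54+CD31- cells. *Pgm2*, a phosphoglucomutase, fell by 4.23 and 3.52, and *Pgm1* rose by 2.87 and 2.60. The other higher gene was *Ugcg*, at 2.83 and 1.28. P2 against CD31+ cells gave 4 higher and 5 lower, and E18.5 1 higher and 4 lower.

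Of 10 genes of sulfate supply in the files, 9 were tested. In P2 cells 0 were higher and 5 lower than in E14.5 CD54+CD31- cells, led by *Papss2*, a PAPS synthase (-4.90), and 0 were higher and 8 lower than in CD31+ cells. In CD31+ cells 4 were higher and 3 lower, and at E18.5 4 were higher and 2 lower. The 10 conjugate exporters gave 3 higher and 7 lower in P2 cells, 4 higher and 6 lower in CD31+ cells, 1 higher and 6 lower in P2 against CD31+ cells, and 3 higher and 3 lower at E18.5. *Abcb11*, the bile salt export pump, fell by 6.63 in P2 and 5.77 in CD31+ cells, and *Abcc1*, a glutathione conjugate pump of many cell types, rose by 2.60 and 2.75. Other phase II enzymes, such as N-acetyl- and methyltransferases, gave 3 higher and 10 lower of 14 in P2 cells, 1 and 10 in CD31+ cells, 4 and 4 between P2 and CD31+ cells, and 3 and 2 of 15 at E18.5. *Nat2* was higher in P2 cells by 1.87 against E14.5 CD54+CD31- and by 1.69 against CD31+ cells.

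Of 22 regulators of these genes, which are transcription factors and the NRF2 inhibitor *Keap1* and were all tested, 2 were higher and 16 lower in P2 than in E14.5 CD54+CD31- cells. *Foxa3* and *Foxa2* fell by 7.23 and 6.92, and *Mafk* and *Nfe2l2*, which encodes NRF2, rose by 1.79 and 0.52. In CD31+ cells 5 were higher, with *Bach1* at 1.34 and the xenobiotic receptor *Ahr* at 1.25, and 16 lower. P2 against CD31+ cells gave 3 higher and 15 lower, with *Ahr* at -3.78, and E18.5 gave 10 higher and 5 lower, with *Foxa3* at -2.93. Of 17 NRF2 target genes, 16 were tested, and 5 were higher and 6 lower in P2 than in E14.5 CD54+CD31- cells, with *Nqo1* at 2.08 and *Me1* at -3.98. These are 31.2% and 37.5% of those tested, near the shares over all genes. P2 against CD31+ cells gave 8 higher and 4 lower, with *Hmox1* at -4.65, CD31+ against E14.5 CD54+CD31- cells 2 higher and 10 lower, and E18.5 4 higher and 8 lower. The median log2 fold change of the NRF2 targets in P2 against E14.5 CD54+CD31- cells was 0.03, that of the regulators -4.33 and that of all genes -0.01.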

How the data were processed

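RNA of 4 sorted populations, with 12 libraries in all, was sequenced by the authors as single-end reads from stranded total RNA libraries depleted of ribosomal sequences. Per the paper's methods and the labels, reads were trimmed with cutadapt 1.11, aligned to GRCm38 with STAR 2.5.0a and counted per gene with featureCounts 1.4.6-p3 of Subread. The strand setting and the handling of reads with several alignments are not given in the sources used here. The authors deposited 1 raw count column per library, and beside it a score column, in which each library's counts were scaled by a single factor and rounded (DESeq2, R 3.5.1).

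Counts of 38127 genes were tested with edgeR 4.0.16 (TMM, filterByExpr, quasi-likelihood test, Benjamini-Hochberg adjustment, threshold 0.05) in R 4.3.3. The 9 E14.5 libraries entered 1 fit and the 6 CD54+CD31- libraries another. CPM values were scaled over all 12 libraries. Members given with their values were the 3 highest per kilobase of each superfamily in each population and the 5 called members with the largest change in each direction whose libraries did not overlap. Others named were chosen after their values were seen. The members and lists were chosen with earlier results of these data known, and no test was made over a list. Lists of pathway genes and of hepatoblast, endothelial, erythroid, macrophage, stellate, mesothelial, lung epithelium, club cell and cholangiocyte markers held 203 genes, of which 202 were found. Against a group at 0, folds were taken against 3 counts per library, which covers counting error only. Shared sequence was the percentage of 50-base windows of a member's transcripts found in other genes. Alternatives were DESeq2 1.42.0, its size factors, the authors' factors from the deposited score columns, no filter, at least 10 counts in every library, genes above 1% left out, all 12 libraries or only the 6 compared, a replicate block, and leaving out each library. The scripts were tested on simulated data. No 2 replicate libraries were alike within sampling noise (lowest chi-square per degree of freedom 42).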

Additional observations from a re-analysis of the deposited data

How the results depend on the processing

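The libraries of each comparison share replicate numbers, but deviations of libraries with the same number correlated weakly, between 0.00379 and 0.098 for P2 and E14.5 CD54+CD31- cells, 0.0238 and 0.165 for CD31+ and E14.5 CD54+CD31- cells, 0.0712 and 0.169 for P2 and CD31+ cells, and 0.0268 and 0.0857 for E18.5 and E14.5. Each library correlated best with its own number in 3 of 6, 5 of 6, 6 of 6 and 3 of 6 libraries of these comparisons, a hint from the data for P2 and CD31+ cells. That a number marks 1 litter is not given in the sources used here, and not every correlation was over 0.1, so the numbers were not taken as pairs. With a replicate block, 1 member was higher and 29 lower in P2 against E14.5 CD54+CD31- cells, 3 and 29 in CD31+ against E14.5 CD54+CD31- cells, 7 and 11 in P2 against CD31+ cells, and 5 and 21 at E18.5. Of all genes called with the block, 48.7%, 48.0%, 47.0% and 51.6% were higher in these comparisons. Among the named members the block changed the calls of *Gstp1*, *Ugt2b5* and *Mgst1* given above and no other.

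Of 1681 values under alternatives, 1596 were unchanged, 28 lost a call and 15 gained one. Of the unchanged values, 115 were numbers of members called, which only had to lie close to that of the main fit. The other 1481 were mostly fold changes of single genes, which kept their direction and side of the threshold. With at least 10 counts in every library, 15 members were lower in P2 and 16 in CD31+ cells, since fewer members were tested. DESeq2 called 8 members higher at E18.5, and the cause was not tested. Leaving out 1 library gave 1 higher and 29 to 30 lower members in P2 cells, 2 to 4 and 29 to 30 in CD31+ cells, 6 to 7 and 10 to 12 in P2 against CD31+ cells, and 5 to 7 and 18 to 25 at E18.5. The share of all called genes that were higher was 47.1% to 48.4%, 43.1% to 48.9%, 46.3% to 48.9% and 50.6% to 52.8% in these fits. Fitting all 12 libraries together lost the P2 against CD31+ calls of *Gstp3* (adjusted p = 0.0816, edgeR), *Gstm6* (0.054), *Gsta3* (0.062), *Gstz1* (0.0968), *Ugt2b34* (0.477) and *Ugt2b5* (0.345), leaving 4 higher and 8 lower.

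Directions turned for 12 results, none of which was called. In P2 against E14.5 CD54+CD31- cells, *Mgst3* was at -0.24 and *Sult6b1* at -0.19 with the authors' factors, and at -0.07 and -0.04 with at least 10 counts in every library. In P2 against CD31+ cells the authors' factors gave -0.06 for *Gstp1*, -0.29 for *Sult2a8* and -0.11 for *Gstm3*, and *Sult1b1* was at 0.04 without a filter and 0.01 with all 12 libraries. Leaving out 1 library gave -0.10 to 0.14 for *Mgst3*, -0.14 to 0.22 for *Sult6b1* and -0.18 to 0.27 for *Sult2b1* in P2 against E14.5 CD54+CD31- cells, and -0.95 to 1.38 for *Ugt8a* in CD31+ cells. In P2 against CD31+ cells it gave -0.33 to 0.14 for *Ugt2b35*, -0.91 to 0.20 for *Ugt2b36*, -0.77 to 0.31 for *Sult1d1*, -0.15 to 0.51 for *Sult2a8*, -2.90 to 2.62 for *Ugt2b1*, -0.07 to 0.61 for *Gstm3* and -0.57 to 0.77 for *Sult1b1*. The cause was not tested.

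The authors' factors moved the share of called genes that were higher to 53.4% from 48.3% in CD31+ cells and to 60.9% from 51.7% at E18.5, where the median of all genes moved to 0.27 from 0.03, and in P2 against CD31+ cells to -0.50 from -0.13. Summed over *Gstp1*, *Gstp2* and *Gstp3*, of which *Gstp3* shares no window with another gene, the level was 45.1 CPM in P2 cells, 256 in E14.5 CD54+CD31- cells and 41.8 at E18.5, and over *Gstm1*, *Gstm2*, *Gstm3* and *Gstm6* it was 7.04 in P2, 483 in E14.5 CD54+CD31- and 22.0 in CD31+ cells. Depth limits only members near 0.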
